A study of Mus musculus with 4 samples.

Results

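The 10 genes Pou5f1, Sox2, Nanog, Klf4, Klf2, Tfcp2l1, Tbx3, Esrrb, Prdm14 and Zfp42 encode pluripotency transcription factors of mouse embryonic stem cells (ESCs). Wapal binding around these genes is described here. They were taken by symbol from the GENCODE release M1 annotation of mm9, out of 22350 protein-coding genes on chromosomes with at least 1 Wapal site. Of the 10, 9 were found under these symbols, and Tfcp2l1 is listed in that annotation under its older name Tcfcp2l1. All Wapal sites within 100 kb of each transcription start site (TSS) were taken, which gave 22 of the 8323 sites in the genome.

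The libraries were biotin-mediated chromatin immunoprecipitation with sequencing (bioChIP-seq) from 2 clones of ESCs that carry the biotin ligase BirA together with a tagged, biotinylatable Wapal (FB Wapal), 1 library from ESCs that carry only BirA, and 1 input labelled as made from FB Wapal cells. The ESCs of the study were 129SVJ-derived and adapted to growth on gelatin, and the tagged Wapal was expressed below the level of the endogenous protein, which the cells kept. The 2 FB Wapal clones share 1 deposited list of regions, so no spread between replicates can be given and every value below is a single value. Regions of that list that touch a BirA region by at least 1 bp were removed, and the 8323 that remain are called sites. The study's own count after subtracting BirA regions is slightly lower, and the source of the difference was not traced. Each site carries the authors' MACS score, which is the p-value of the region as a negative log10 multiplied by 10, and which ran from 50.0 to 685 in the whole list. The lists hold no read counts and no expression, so the identity of the cells could not be checked against marker genes.

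Wapal is a partner of the cohesin ring and opens it to release it from chromatin. On mammalian chromosomes cohesin is often held at sites of the zinc finger protein CTCF, and pairs of such sites whose motifs point toward each other commonly border chromatin loops. Pou5f1 (Oct4), Sox2 and Nanog form the core of the ESC network, Klf4, Klf2, Tfcp2l1, Tbx3 and Esrrb sustain it downstream of LIF and other signals, and Prdm14 and Zfp42 (Rex1) are factors of the naive state, with Zfp42 used widely as a marker of it.

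The sequence at the sites is shown first because the share of regions with the CTCF core motif differed widely between sites and their flanks. In each site the best match to this motif of 12 bases was sought on both strands of mm9. Among equally good matches the match nearest to the centre was taken, which favours short distances from the centre. Each line below gives 42 bases, 5′ to 3′ on the strand of the motif, with the matched bases in capitals. The windows are, where a gene has several sites, from the sites nearest to their genes on a given side, the first 5 with no mismatch to the core motif, the sixth with 1 and the seventh with 2.
Sox2, site over the TSS, chr3:34546794-34546835, forward strand: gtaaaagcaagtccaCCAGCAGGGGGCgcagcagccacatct
Pou5f1, downstream, chr17:35715301-35715342, forward strand: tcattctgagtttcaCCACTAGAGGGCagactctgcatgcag
Tbx3, downstream, chr5:120141318-120141359, reverse strand: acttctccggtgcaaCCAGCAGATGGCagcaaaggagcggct
Esrrb, intron, chr12:87743862-87743903, reverse strand: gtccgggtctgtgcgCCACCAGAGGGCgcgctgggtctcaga
Zfp42, downstream, chr8:44337179-44337220, forward strand: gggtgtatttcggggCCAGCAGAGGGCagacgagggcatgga
Prdm14, upstream, chr1:13124586-13124627, reverse strand: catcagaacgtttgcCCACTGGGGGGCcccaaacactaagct
Nanog, downstream, chr6:122670163-122670204, reverse strand: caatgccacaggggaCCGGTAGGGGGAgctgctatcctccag

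With at most 1 mismatch, 15 of the 22 sites near the pluripotency genes held the core motif, or 68.2%. The share over all sites was 74.5%, and it was 9.76% in regions of the same widths placed 5 kb to either side of all sites. With no mismatch, 5 of the 22 sites held it (22.7%), against 28.3% of all sites. Over whole sites, the share near these genes thus lay near that of the whole list and far from that of the flanking regions. Within 200 bp on either side of the centre, 12 of the 22 sites held the motif with at most 1 mismatch. That is 54.5%, against 67.8% of all sites, and no share of flanking regions was computed for this setting. The motif lay within 100 bp of the centre in 11 of the 15 sites, with a median of 57 bp from the centre over the 15 sites and 41 bp over all sites that hold it. The 4 others were all wider than 1500 bp. The motif lay 280 bp from the centre in the upstream Klf2 site, 284 bp in the first Klf4 site, 494 bp in the wide Nanog site and 1855 bp in the site over Sox2, near its upstream edge.

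A window of 100 kb around the TSS held a Wapal site for 9 of the 10 genes, and each of these 9 had at least 2. Among all protein-coding genes, 60.1% had a site within 100 kb and 27.0% had 2 or more. The median number of sites was 2 for the 10 genes and 1 for all genes. Of the 22 sites, 8 lay upstream, 13 downstream and 1 over a TSS. This split was not counted over all protein-coding genes, so no side is read as favoured. The last site inside the window was 85.8 kb from Zfp42, and the first outside it was 105.922 kb from Sox2.

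**Figure D1:**
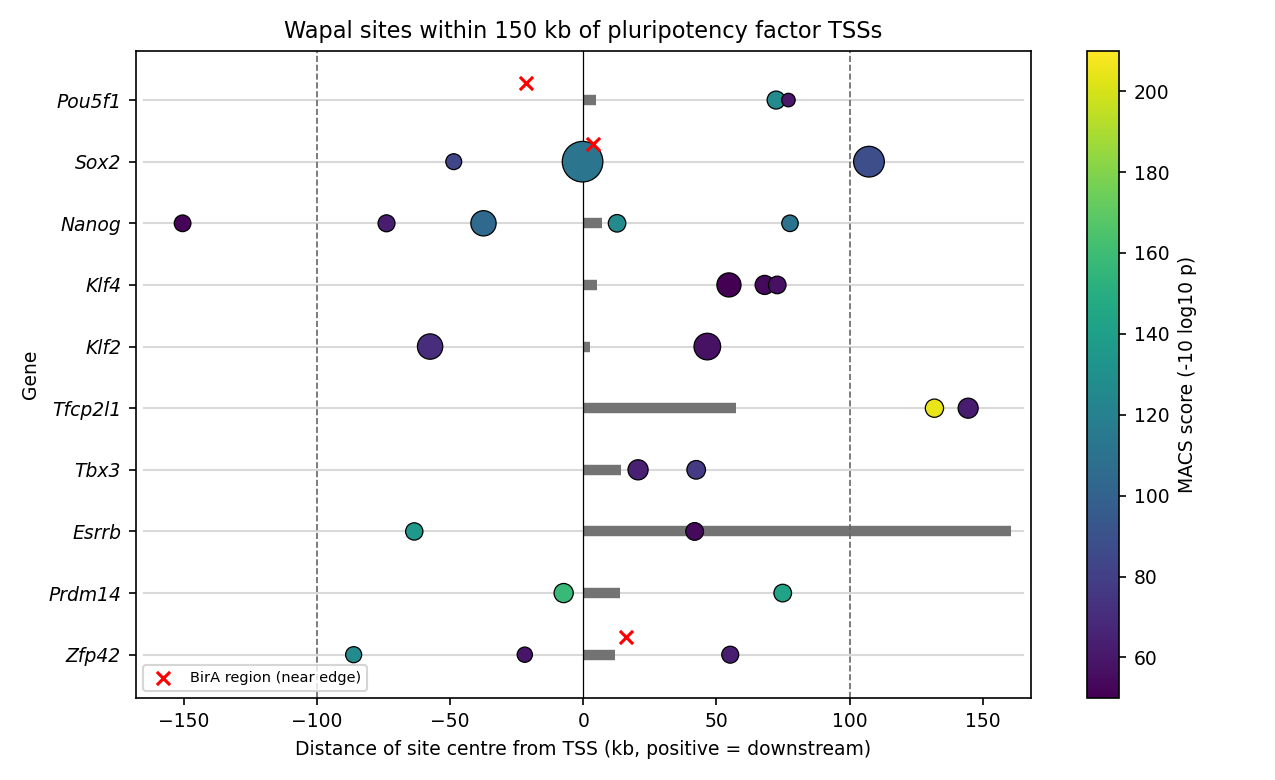
Each point is a Wapal site, placed by the distance of its centre from the TSS in kb along the direction of transcription, with area in proportion to width and colour by MACS score; grey bars are gene bodies, crosses BirA regions and dashed lines the limits of 100 kb. The widest point is the site over the Sox2 TSS, and Tfcp2l1 has no point between the dashed lines.

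The median distance from the TSS to the near edge of the nearest site was 31.5 kb for the 10 genes and 72.5 kb for all protein-coding genes. From near to far the order was Sox2 (0 kb), Prdm14 (6.85 kb), Nanog (12.3 kb), Tbx3 (20.0 kb), Zfp42 (21.6 kb), Esrrb (41.4 kb), Klf2 (45.6 kb), Klf4 (53.9 kb), Pou5f1 (71.9 kb) and Tfcp2l1 (131 kb). Tbx3 and Zfp42 were 1.61 kb apart in this order, and Esrrb and Klf2 4.21 kb. Sites were within 50 kb of 7 genes, against 38.8% of all genes. Within 20 kb they were found at 3 genes, against 18.4%, and Tbx3 missed that limit by 9 bp. No list test was made over these 10 chosen genes, so the counts are descriptions.

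**Figure D2:**
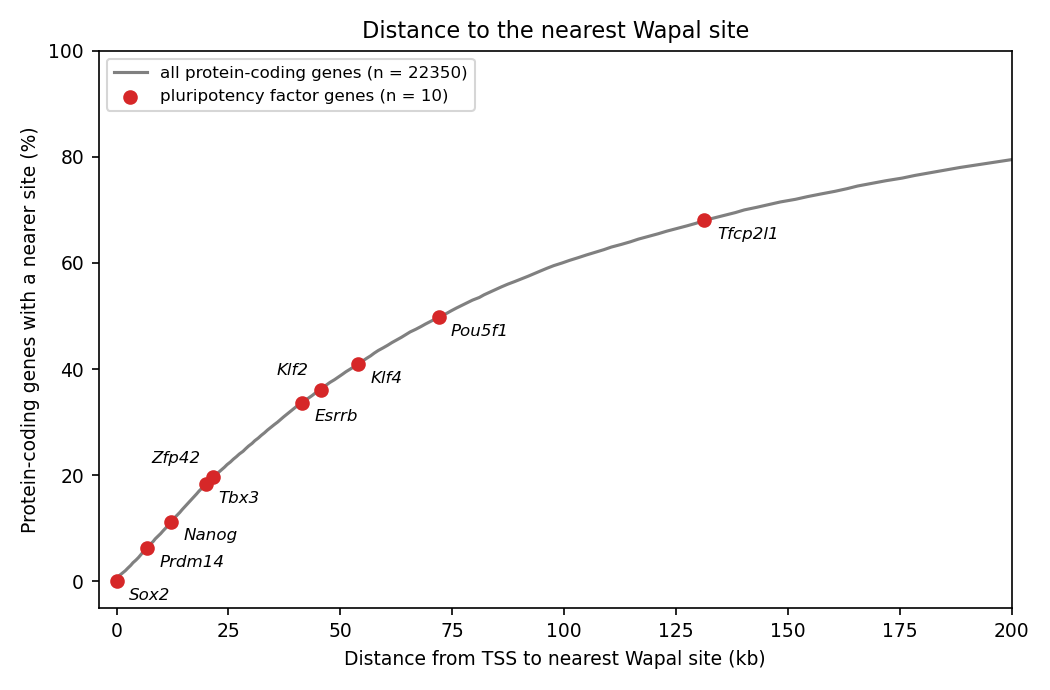
The horizontal axis is the distance in kb from a TSS to its nearest Wapal site and the vertical axis the percentage of protein-coding genes with a nearer site; the grey line is all 22350 genes and the red points are the 10 pluripotency genes. Of the 10 points, 9 lie below 50%, from 0% for Sox2 to 49.8% for Pou5f1, and Tfcp2l1 lies at 68.0%.

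Pou5f1 encodes the POU-domain factor Oct4, and had no site on its upstream side within the window. It lies on chromosome 17, forward strand, from 35642982 to 35647721. Its sites spanned 35714911 to 35715805 (895 bp, score 126) and 35719720 to 35720224 (505 bp, score 60.6), and lay 71.9 and 76.7 kb downstream. The stronger of them scored above 79.2% of all sites and carried an exact core motif on the forward strand. Both lay in extragenic DNA between 2300002M23Rik and Sfta2, and the TSSs of 5 other protein-coding genes (Tcf19, Cchcr1, Psors1c2, Cdsn and 2300002M23Rik) separated them from Pou5f1. On the upstream side the next site was 555 kb away, beyond a gene-dense stretch of the major histocompatibility complex. That distance rests on the removal of 1 FB Wapal region of score 233 that touched a BirA region, without which the upstream distance would be 21.0 kb.

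Sox2 encodes an HMG-box factor that binds DNA as a partner of Oct4, and it was the only member with a site over its TSS, which 0.81% of all protein-coding genes have. The gene lies on chromosome 3, forward strand, from 34548927 to 34551383, inside the long noncoding transcript Sox2ot. The site spanned 34546394 to 34550944, a width of 4551 bp that only 3 of all sites exceeded, with a score of 112. It covered the promoter and most of the gene. Its GC content was 54.6% and it held 5.87 CpG dinucleotides per 100 bp, against medians of 44.3% and 1.12 over all sites. Its exact core motif stood 2.11 kb upstream of the TSS. The 250 bases before the TSS, chr3:34548677-34548926 on the forward strand, are printed because they lie wholly inside this site.
Sox2 promoter: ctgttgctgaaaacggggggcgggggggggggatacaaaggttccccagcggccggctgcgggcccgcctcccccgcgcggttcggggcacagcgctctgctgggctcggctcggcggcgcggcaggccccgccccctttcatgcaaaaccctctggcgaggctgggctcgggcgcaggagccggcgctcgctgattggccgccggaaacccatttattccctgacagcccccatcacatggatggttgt

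A BirA region lay 1714 bp beyond the end of this Sox2 site, so the value over the gene stands beside background in the control cells, and the part of that background in the site was not tested. The other Sox2 site within the window spanned 34499974 to 34500669 in an intron of Sox2ot, 48.3 kb upstream, with a width of 696 bp and a score of 84.0. Just past the window, 105.922 kb downstream, came a site of 2608 bp with a score of 87.8, spanning 34654849 to 34657456. Sox2 is known to depend in ESCs on a distal enhancer cluster far downstream of the gene. Whether the outer site lies in that cluster was not tested. That outer site was among the 46 widest of all, and its best core motif had 2 mismatches.

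Nanog, a homeodomain factor, had 4 sites, the most of the 10 genes, and 0.461% of all protein-coding genes had more. It lies on chromosome 6, forward strand, from 122657507 to 122664651. The nearest site lay 12.3 kb downstream of the TSS, between Nanog and Slc2a3 with its centre 5.54 kb past the end of Nanog, and spanned 122669768 to 122670616 with a width of 849 bp and a score of 126. On the other side a wide site of 1768 bp (122619178 to 122620945, score 104) lay 36.6 kb upstream, between Dppa3 and Nanog. The outer sites were a weak one near Dppa3 (122583276 to 122584068, 793 bp, score 62.9), 73.4 kb upstream, and one in an intron of the glucose transporter gene Slc2a3 (122734718 to 122735469, 752 bp, score 111), 77.2 kb downstream. Dppa3, another gene expressed in pluripotent cells, lies 81.1 kb from Nanog, and 3 of the 4 sites within 100 kb of its own TSS were Nanog sites as well. Among the Nanog sites the core motif with at most 1 mismatch was found in the wide upstream site alone, on the forward strand.

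Klf4 encodes a Krüppel-like zinc finger factor, and its 3 sites all lay downstream and were all weak. The gene lies on chromosome 4, reverse strand, from 55540013 to 55545347. The sites spanned 55489875 to 55491480 (1606 bp, score 50.3), 55476773 to 55477779 (1007 bp, score 54.0) and 55472124 to 55472979 (856 bp, score 56.5). The first of them stood above only 0.360% of all sites in score. They were 53.9, 67.6 and 72.4 kb from the TSS, and the farther pair lay at the start and in the noncoding gene Gm12510. On the upstream side no site was met for 690 kb.

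Klf2, a paralogue of Klf4, had a site on either side, both wide and of modest score. It lies on chromosome 8, forward strand, from 74842932 to 74845555. The upstream site spanned 74784561 to 74786335 (1775 bp, score 70.6), 56.6 kb away, near Ap1m1. The downstream site spanned 74888507 to 74890467 (1961 bp, score 57.0), 45.6 kb away, in an intron of Eps15l1. The upstream site held the core motif with 1 mismatch, and the best match of the downstream site had 2.

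Tfcp2l1 encodes a CP2-family factor that acts downstream of LIF and STAT3, and it had no site within 100 kb. It lies on chromosome 1, forward strand, from 120524522 to 120581744. Its nearest site spanned 120655855 to 120656773 (919 bp), 131 kb downstream of the TSS, with its centre 74.6 kb past the end of the gene and 74.4 kb from Gli2. Its score of 205 was higher than that of any of the 22 sites in the window, and above 95.1% of all sites. A second site followed at 144 kb with a score of 62.3, and both carried an exact core motif on the reverse strand. Upstream the nearest site was 1108 kb away.

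Tbx3, a T-box factor, had both of its sites downstream. The gene lies on chromosome 5, forward strand, from 120120678 to 120134733. The sites spanned 120140687 to 120141804 (1118 bp, score 64.4) and 120162577 to 120163535 (959 bp, score 77.8), 20.0 and 41.9 kb from the TSS. The centre of the first was 18 bp from the annotated TSS of the noncoding gene Gm16065. Tbx3 has annotated TSSs over 10.1 kb, and from the nearest of them the first site was 9.93 kb away. Both sites held the core motif on the reverse strand, pointing back toward Tbx3, and no site was found upstream for 790 kb.

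Esrrb encodes an orphan nuclear receptor, and is the longest of the 10 genes, on chromosome 12, forward strand, from 87702067 to 87862578. One site lay inside it, spanning 87743435 to 87744301 (867 bp) in an intron 41.4 kb downstream of the TSS, with a score of 54.0. This site had a high GC content of 56.1%, the highest of the 22, and an exact core motif. The other spanned 87638230 to 87639055 (826 bp, score 136), 63.0 kb upstream in an intron of the noncoding gene 4732487G21Rik. Annotated TSSs of Esrrb transcripts spread over 143 kb, and the inner site was 18.3 kb from the nearest of them.

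Prdm14, a PR-domain protein that represses lineage genes in the naive state, had the site of the highest score among the 22. The gene lies on chromosome 1, reverse strand, from 13103538 to 13117244. The site spanned 13124091 to 13125107 (1017 bp), 6.85 kb upstream of the TSS in the gap before Ncoa2, and its score of 158 was above 88.9% of all sites. Only 6.32% of protein-coding genes had a nearer site. The second site spanned 13041958 to 13042818 (861 bp, score 143), 74.4 kb downstream, midway to Slco5a1. The upstream site held the core motif with 1 mismatch, and the downstream site had 2.

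Zfp42, the zinc finger factor Rex1, had 3 sites. It lies on chromosome 8, reverse strand, from 44380422 to 44392363. The nearest spanned 44413983 to 44414627 (645 bp, score 59.2), 21.6 kb upstream, and the strongest 44478180 to 44478892 (713 bp, score 126), 85.8 kb upstream. The downstream site spanned 44336811 to 44337603 (793 bp, score 63.5), 54.8 kb from the TSS. All 3 lay in extragenic DNA and held the core motif, the downstream one exactly. The strongest had a GC content of 32.7%, the lowest of the 22 sites.

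By score the 22 sites ranged from 50.3 at Klf4 to 158 at Prdm14, with a median of 74.2 against 81.4 over all sites. A score of at least 100 was reached by 9 of them (40.9%), against 34.6% of all sites. These 9 were at Prdm14 and Nanog (5 of them), Pou5f1, Sox2, Esrrb and Zfp42, and no site at Klf4, Klf2 or Tbx3 reached it. The median width was 864 bp, against 812 bp over all sites. The upper end was different, with 5 of 22 sites (22.7%) wider than 1500 bp, a limit chosen after the widths were seen, against 4.54% of all sites. The wide ones were the site over Sox2, both Klf2 sites, the first Klf4 site and the Nanog site upstream.

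**Figure D3:**
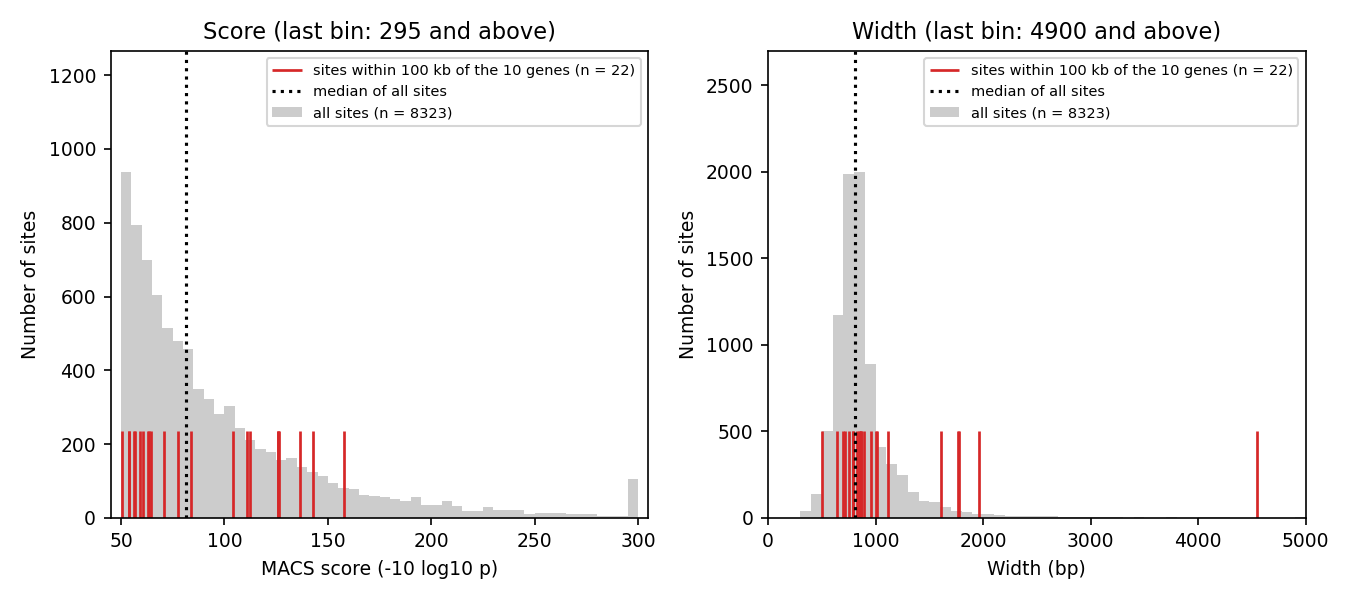
The left panel plots MACS score and the right panel width in bp; grey bars count all 8323 sites, red lines mark each of the 22 sites within 100 kb of the pluripotency genes and the dotted line is the median of all sites. Red scores spread on both sides of the median of 81.4, and in width 1 line stands far out at 4551 bp, the Sox2 site.

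By position, 13 of the 22 sites were extragenic (59.1%, against 54.1% of all sites), 6 were in introns (27.3% against 33.3%), 3 within 2 kb of an annotated TSS (13.6% against 9.90%) and 0 in exons (2.64% of all sites). Only 2 touched the body of the pluripotency gene itself, at Sox2 and Esrrb. The pluripotency gene had the nearest protein-coding TSS to 14 of the 22 sites, and no other protein-coding TSS stood between gene and site for 19. The exceptions were both Pou5f1 sites and the upstream Klf2 site, which is separated from Klf2 by Gm10282. Neither count was made for all protein-coding genes. For 7 of the 10 genes no other protein-coding TSS lay within 100 kb. At these genes no such TSS could stand between gene and site, so the count of 19 largely restates their isolation. Motifs of the factors themselves were then searched on both strands. The octamer ATGCAAAT, bound by POU factors such as Oct4, was in 0 of the 22 sites, in 5.14% of all sites and in 5.83% of the flanking regions. The motif TCAAGGTCA, bound by Esrrb, was in 0 of 22, in 2.67% of all sites and in 2.38% of flanking regions. With 22 sites and shares this low, nothing about either factor is drawn from these counts. A match to the latter was present in the outer Sox2 site, past the window.

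The nearest site on either side of a TSS, at any distance, marks an interval around that TSS. A site over the TSS itself, as at Sox2, was not counted as a border, and at Esrrb the downstream border was the site inside the gene, so that interval holds the TSS but only the first part of the gene. For the 10 genes its median length was 129 kb, against 368 kb for the 22071 protein-coding genes with a site on both sides. The shortest was that of Nanog (48.8 kb), followed by Zfp42 (76.4 kb), Prdm14 (81.3 kb), Klf2 (102 kb), Esrrb (104 kb) and Sox2 (154 kb, measured between its outer sites across the one over the TSS). Pou5f1 (627 kb), Klf4 (744 kb), Tbx3 (810 kb) and Tfcp2l1 (1239 kb) lay in long intervals, each with its near site downstream. With the regions that touch BirA kept, the interval of Pou5f1 would be 92.9 kb, that of Sox2 51.4 kb and that of Zfp42 33.5 kb, while those of the other 7 genes and the 7 counted below would not change.

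Sox2, Nanog, Klf4, Tbx3, Esrrb, Prdm14 and Zfp42 were the only protein-coding gene with a TSS in their interval, which makes 7 of 10, against 9.53% of all genes. Klf2 shared its interval with Gm10282, Tfcp2l1 with 5 other genes and Pou5f1 with 50, or 5 with the regions touching BirA kept. Of the 10 genes, 7 had no other protein-coding TSS within 100 kb, which held for 12.2% of all genes. The others were Nanog and Klf2, with 3 each, and Pou5f1 with 9, where the median over all genes was 3. Of all genes without such a neighbour, 37.9% were alone in their interval and 46.0% had a site within 100 kb. Of the 7 members without a neighbour, 6 were alone in their interval, with Tfcp2l1 as the exception. The part of gene density in these counts was not tested.

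The strand of the core motif (at most 1 mismatch) could be read at both flanking sites for 4 genes. At Klf4, Tbx3 and Zfp42 the motifs pointed toward each other across the gene, and at Esrrb both lay on the reverse strand. Over all protein-coding genes with a motif at both sites the converging arrangement made up 26.0%. At the other 6 genes 1 flanking site lacked the motif, and with so few readable pairs no share was computed for the 10 genes.

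**Figure D4:**
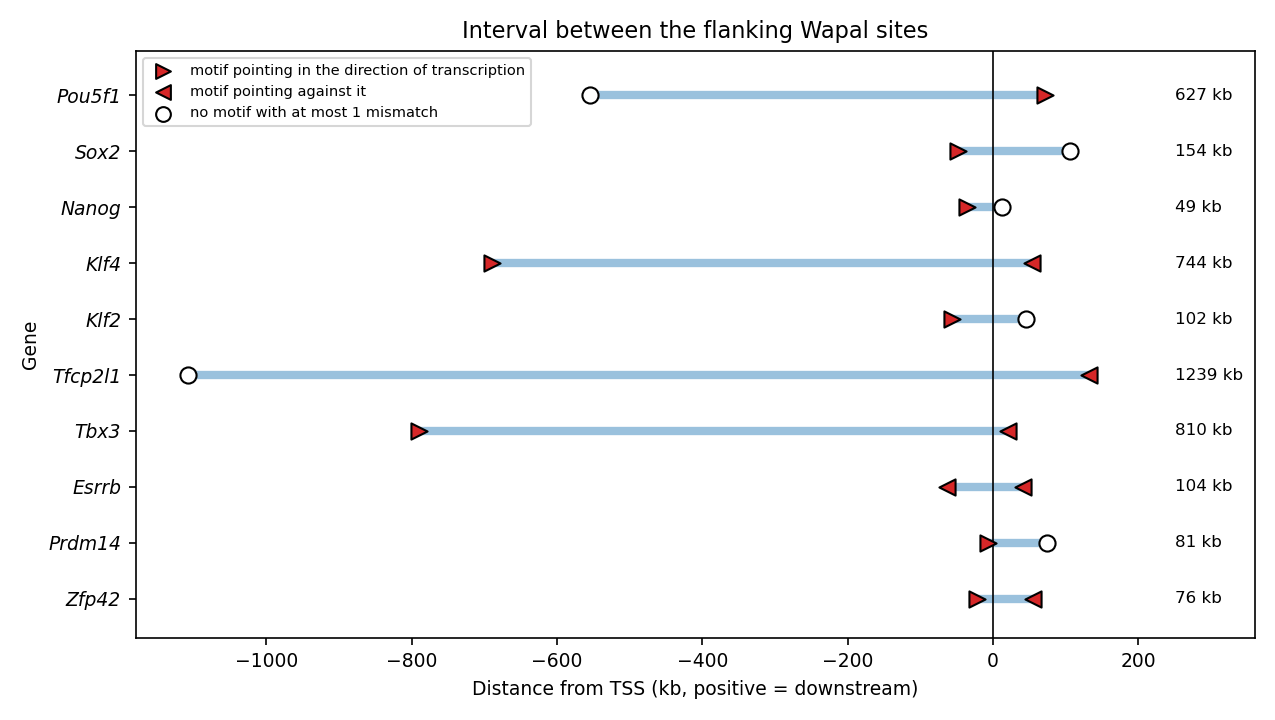
Each bar is the stretch, in kb from the TSS along the direction of transcription, between the nearest Wapal sites upstream and downstream, with its length printed at the right; filled triangles give the direction of the core motif in the flanking site and open circles a site without it. Filled triangles face each other at Klf4, Tbx3 and Zfp42, and the bars of Pou5f1, Klf4, Tbx3 and Tfcp2l1 reach over 500 kb upstream.

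Background in cells with BirA alone was measured over the same windows. BirA regions lay within 100 kb of Pou5f1, Sox2 and Zfp42, or 3 of the 10 genes, whereas 3.31% of all protein-coding genes had one. The BirA regions were 21.5 kb upstream of Pou5f1 (35621062 to 35621510, score 64.6), 3.73 kb downstream of the Sox2 TSS (34552658 to 34553185, score 57.2) and 16.1 kb downstream of that of Zfp42 (44375516 to 44376288, score 88.9). Each overlapped a region of the FB Wapal list, and these 3 FB Wapal regions were removed with it. With them kept, the nearest region would be 21.0 kb from Pou5f1 in place of 71.9 kb, and 11.9 kb from Zfp42 in place of 21.6 kb. That at Pou5f1 spanned 35620760 to 35622022 with a score of 233, above 97.0% of the sites kept. That at Zfp42 ran for 5519 bp, from 44374918 to 44380436 across the end of the gene, with a score of 156, and only 1 site kept was wider. That at Sox2 ran for 3712 bp from 34552050 to 34555761, with a score of 58.5. Scores are not comparable between the lists, so how far binding of tagged Wapal exceeds the BirA background at these places was not tested.

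The same counts were made for 20 further genes of the pluripotency network. Of these, 12 had a site within 100 kb (60%, against 60.1% of all protein-coding genes), and the median distance to the nearest was 69.0 kb. Sites within 10 kb were found at Gbx2 (5.42 kb), Dppa3 (6.85 kb), Stat3 (7.73 kb), Dppa5a (9.42 kb) and Tet2 (9.75 kb). Of all protein-coding genes, 9% had a site within 9.86 kb. Dppa5a also had 2 BirA regions within 100 kb, the nearest 1.96 kb from its TSS. Those with none within 100 kb included Nr5a2, Nr0b1, Klf5, Lin28a, Tcf7l1, Tet1 and Otx2. A second comparison was with 10 early lineage factor genes, which are off or low in ESCs. Of these, 8 had a site within 100 kb, all but Gata6 and Hand1, and the median distance was 67.8 kb, with Eomes nearest at 9.69 kb. At least 2 sites were found at 9 of the 10 core genes, 6 of the 20 further genes and 4 of the 10 lineage genes. The lists are small and were chosen, and the differences between them were not tested.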

How the data were processed

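Reads were mapped by the authors with Bowtie (build mm9), who retained unique alignments, called regions against input with MACS 1.4.2 at its default p of 1e-05 and deposited, per region, the MACS score as a BED list. One list covers both FB Wapal clones (8497 regions), by a joining rule not given in the sources used here, and another covers BirA (266 regions). After subtraction of regions touching BirA regions, 174 were dropped. Depth per region is unknown, and regions within a list are not replicates.

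The members and lists were chosen with earlier results of these data known. Genes were located by symbol or RefSeq synonym in GENCODE M1, whose build is that of the deposited lists. Here the TSS was the 5′ end of the gene record, distances ran to the near edge of a site, and 30 protein-coding genes on chromosomes without sites were left out. All 10 genes are named, with the hosts and neighbours of their sites. From the other lists, genes with a site within 10 kb or none within 100 kb are named, except for 1 gene that is not reported here. The CTCF core motif was searched with at most 1 mismatch. No test over samples was possible. Functions were tested on simulated data. Alternatives covered BirA removal, score, distance, TSS, merging, window and mismatches. Python 3.11.15, numpy 2.4.6, pandas 2.3.3, pysam 0.24.0 and matplotlib 3.10.9 were used.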

Additional observations from a re-analysis of the deposited data

How the results depend on the processing

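No paired analysis was possible because the FB Wapal clones share 1 list, and for the same reason neither clone could be left out. A score of at least 100 left 9 of the 22 sites and 6 of the 9 genes, with a median distance of 78.9 kb, a median score of 126 and a median interval of 1258 kb, as a shorter list must. The median distance fell to 20.5 kb when regions touching BirA were kept (median interval 97.5 kb) and to 20.0 kb from the nearest TSS of any transcript. The score limit, the kept BirA regions and the nearest TSS of any transcript were not computed for all protein-coding genes. Gene counts, distances and intervals at these settings can thus not be set against the values of all genes, such as the medians of 72.5 kb and 368 kb. A window of 20 kb held 3 genes and 3 sites, 50 kb held 10 sites, and 200 kb reached all 10 genes. Of all protein-coding genes, 79.5% had a site within 200.208 kb. The core motif was in 22.7% of the sites with no mismatch and in 100% with at most 2, where 50.1% of flanking regions hold it too. Removal within 1 kb of a BirA region, merging and distance to the centre changed neither the 9 genes nor the 22 sites. The site over the Sox2 TSS lies 1714 bp from a BirA region, so removal within 1 kb could not reach it. Of 150 values for single genes, 116 stayed within 1.5 times of the value reported, and at a score of at least 100 Klf4, Klf2 and Tbx3 had no site in the window. Those 116 include settings that moved no single-gene value, such as merging, and counts of 0 that stayed 0. The share therefore also reflects which settings were chosen. The lists hold no reads, so a weak site cannot be told from one just under the threshold.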

Other observations

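The sequence around 4 of the motifs was alike at genes on different chromosomes. Read in the direction of the motif, the windows of 42 bases at the upstream Esrrb site, the upstream Zfp42 site with the highest score, the farther Pou5f1 site and the upstream Sox2 site are printed here, with the core motif in capitals.
Esrrb, chr12:87638596-87638637, reverse strand: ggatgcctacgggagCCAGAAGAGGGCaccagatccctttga
Zfp42, chr8:44478567-44478608, forward strand: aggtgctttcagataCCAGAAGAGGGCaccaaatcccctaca
Pou5f1, chr17:35720009-35720050, forward strand: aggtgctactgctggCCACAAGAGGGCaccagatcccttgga
Sox2, chr3:34500208-34500249, forward strand: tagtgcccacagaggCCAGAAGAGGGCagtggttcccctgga

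Esrrb and Pou5f1 shared 31 of the 42 bases, Esrrb and Zfp42 30, and Pou5f1 and Zfp42 29. Sox2 shared 29 with Esrrb, 28 with Zfp42 and 27 with Pou5f1, and 27 were also shared by Pou5f1 and the farther Tbx3 site. The window of the downstream Zfp42 site shared 26 with that of Esrrb, 25 with that of Sox2 and 25 with that of Pou5f1. The printed windows were thus picked from the top of a graded order. The median over all 325 pairs of windows, sites just past 100 kb included, was 17. All windows were aligned on the core motif, which raises the shared bases in every pair. From the start of the motif onward, Esrrb and Pou5f1 shared 25 of 27 bases. The run of 20 bases from the start of the Esrrb motif, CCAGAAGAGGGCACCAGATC, was then searched with at most 2 mismatches on both strands. It was chosen after the windows had been seen, so its matches at Esrrb, Zfp42 and the farther Pou5f1 site were known beforehand and their number is no result. The search covered whole sites. The nearer Pou5f1 site matched as well, with 2 mismatches, at a place other than its core motif printed above, and the upstream Sox2 site had 4. The run was found in 502 of all sites (6.03%) and in 3.16% of the flanking regions. Copies of the rodent B2 short interspersed element are known to carry CTCF motifs. Repeats were not annotated here, and whether these windows lie in such copies was not tested.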
